A study of Homo sapiens with 8 samples.

Results

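The 10 genes described here, CDKN1A, MDM2, GDF15, ZMAT3, DDB2, TIGAR, SESN1, RRM2B, TP53I3 and XPC, were taken by name from known targets of the tumour suppressor p53, and all 10 were measured among 18404 genes. They were chosen with earlier results of these data known, so their shares beside all genes are not those of a set chosen blind. Each was read by 1 probe set with exactly 1 gene symbol, so no second probe set of a member could agree or disagree. p53 is a transcription factor that DNA damage and other stresses stabilise, and its targets halt the cell cycle, repair DNA, adjust metabolism and start cell death. MDM2, itself a target, marks p53 for destruction and so closes a feedback loop. In melanoma cells that keep a working p53, these genes are read as a measure of p53 output, although several also answer to other factors: CDKN1A has been reported as a target of MITF, and GDF15 and the sestrin genes also respond to integrated stress signalling.

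The cells were COLO829, an established human melanoma line with an activating BRAF mutation, measured on 8 arrays in 4 groups of 2, A and B. Both perturbations together are the shMITF PLX4032 group: a pGIPZ hairpin that targets MITF, a transcription factor central to melanocyte identity, plus 24 h in 1 µM of the BRAF inhibitor PLX4032, also called vemurafenib. The other groups are shMITF with the solvent DMSO, a scrambled hairpin (shSCR) with PLX4032, and shSCR with DMSO. All groups were infected with a hairpin vector and selected in puromycin for 2 days before treatment, so no group shows uninfected cells, and all come from 1 cell line and 1 hairpin against MITF. Whether A and B were separate cultures is not stated, so the spread between them may be technical and the p-values measure only that spread.

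Values are log2 intensities, so a difference of 1 is a doubling of signal. Changes are given ± SE from limma's fit over all 8 arrays (n = 2 arrays a group), and a gene is said to have risen or fallen where its Benjamini-Hochberg adjusted p over 18404 genes lay under 0.05. Replicate arrays correlated at 0.9973 to 0.9984 across genes and arrays of different groups at 0.9628 to 0.9844. MITF fell by 0.93 ± 0.080 on knockdown in DMSO and by 0.76 ± 0.080 on knockdown under PLX4032, but it rose by 0.56 ± 0.080 with PLX4032 in knockdown cells, so the doubly perturbed cells stood only 0.38 below shSCR DMSO cells. The BRAF pathway phosphatase gene DUSP6 fell by 2.68 ± 0.084 under PLX4032 in shSCR cells. Of 5 measured melanocyte markers the mean levels ran from 6.22 to 12.30, of 6 leukocyte markers from 3.34 to 5.18, of 6 fibroblast markers from 3.57 to 9.69 (LUM) and of 5 keratinocyte markers from 3.98 to 6.37. Under both perturbations 4 of the fibroblast markers (COL3A1, LUM, COL1A1 and DCN) rose and COL1A2 fell. Of all genes, 27.1% rose and 21.5% fell. The group means of the fibroblast list lay between 5.78 and 5.96, and its part in the members' changes was not tested. The leukocyte receptor gene PTPRC averaged 3.34, and across the 4 groups the mean of the leukocyte markers stayed between 4.31 and 4.48, although 1 of them, CD14, rose by 0.85 on knockdown in DMSO. In bulk RNA, fewer cells of a kind and less RNA per cell cannot be told apart.

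Promoter windows are shown for 4 members: DDB2 and SESN1, whose windows hold the p53 decamer (the 10-base unit that p53 binds, usually as a pair), and TP53I3 and ZMAT3, which had the largest rises under PLX4032. Sequences are from RefSeq on GRCh38.p14, cover 250 bases before to 50 bases after an annotated start, and run 5′ to 3′ on the strand of the gene. Capitals mark p53 decamers and, in ZMAT3, an E-box.
DDB2, chr11:47214724-47215023, plus strand: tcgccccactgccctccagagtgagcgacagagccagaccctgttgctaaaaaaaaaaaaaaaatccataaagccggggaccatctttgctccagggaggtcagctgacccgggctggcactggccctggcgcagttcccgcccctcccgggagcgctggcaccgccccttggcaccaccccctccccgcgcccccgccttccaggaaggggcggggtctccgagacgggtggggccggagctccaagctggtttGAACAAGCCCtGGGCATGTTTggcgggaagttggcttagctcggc
SESN1, chr6:109008939-109009238, minus strand: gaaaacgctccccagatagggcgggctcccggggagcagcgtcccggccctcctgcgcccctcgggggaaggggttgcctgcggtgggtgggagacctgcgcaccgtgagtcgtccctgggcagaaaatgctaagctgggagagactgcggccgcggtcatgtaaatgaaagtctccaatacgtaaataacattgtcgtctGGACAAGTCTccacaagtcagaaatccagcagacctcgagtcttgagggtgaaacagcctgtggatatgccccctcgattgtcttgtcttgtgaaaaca
TP53I3, chr2:24084785-24085084, minus strand: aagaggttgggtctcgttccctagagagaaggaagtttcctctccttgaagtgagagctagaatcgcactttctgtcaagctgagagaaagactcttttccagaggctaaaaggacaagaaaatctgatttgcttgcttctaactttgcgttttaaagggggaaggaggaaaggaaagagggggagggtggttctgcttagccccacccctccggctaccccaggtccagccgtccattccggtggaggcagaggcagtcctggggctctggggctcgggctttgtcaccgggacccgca
ZMAT3, chr3:179071760-179072059, minus strand: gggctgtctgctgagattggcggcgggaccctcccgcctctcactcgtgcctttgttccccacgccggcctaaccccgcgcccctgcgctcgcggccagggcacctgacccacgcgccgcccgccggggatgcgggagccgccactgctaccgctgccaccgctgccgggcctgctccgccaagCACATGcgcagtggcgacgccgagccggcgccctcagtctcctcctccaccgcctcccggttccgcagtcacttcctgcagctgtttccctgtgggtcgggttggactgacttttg

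In DDB2 the 2 decamers begin 6 and 17 bases after the start and are 1 base apart. Windows were found for 9 of the 10 members (16 windows, since some genes have several starts), RRM2B being the other one. The decamer was searched as an exact match to RRRCWWGYYY, so imperfect sites were not counted. Here R is A or G, W is A or T, and Y is C or T. The decamer stood in windows of 2 of these 9 genes, against 8.06% of 27305 genes with windows. By window it stood in 2 of 16, against 6.63% of 35116. A pair of decamers with at most 13 bases between them stood in 1 of the 9, DDB2, and in 10 of the 27305 genes. E-box forms that MITF can bind were searched on both strands: CACGTG was in none of the 9 members' windows (8.77% of genes) and CATGTG was in that of ZMAT3 alone (13.4% of genes), on the reverse strand. The AP-1 motif TGANTCA was in overlapping windows of MDM2 alone (9.37% of genes). A match is only a match of letters in these windows, and which start these cells used was not measured.

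Under both perturbations most members stood above shSCR DMSO cells. Of the 10, 7 rose, 1 fell and 2 did not pass, where 27.1% of all genes rose and 21.5% fell (48.6% called in all). The rises were those of TP53I3, ZMAT3, CDKN1A, XPC, RRM2B, DDB2 and TIGAR, and the fall was that of GDF15. The median member change was 0.39, beside 0.08 over all genes. TP53I3 rose 3.12-fold and ZMAT3 2.31-fold, while GDF15 fell 2.48-fold, and these 3 were the members called with a change of at least 1.5-fold (20.2% of all genes).

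**Figure D1:**
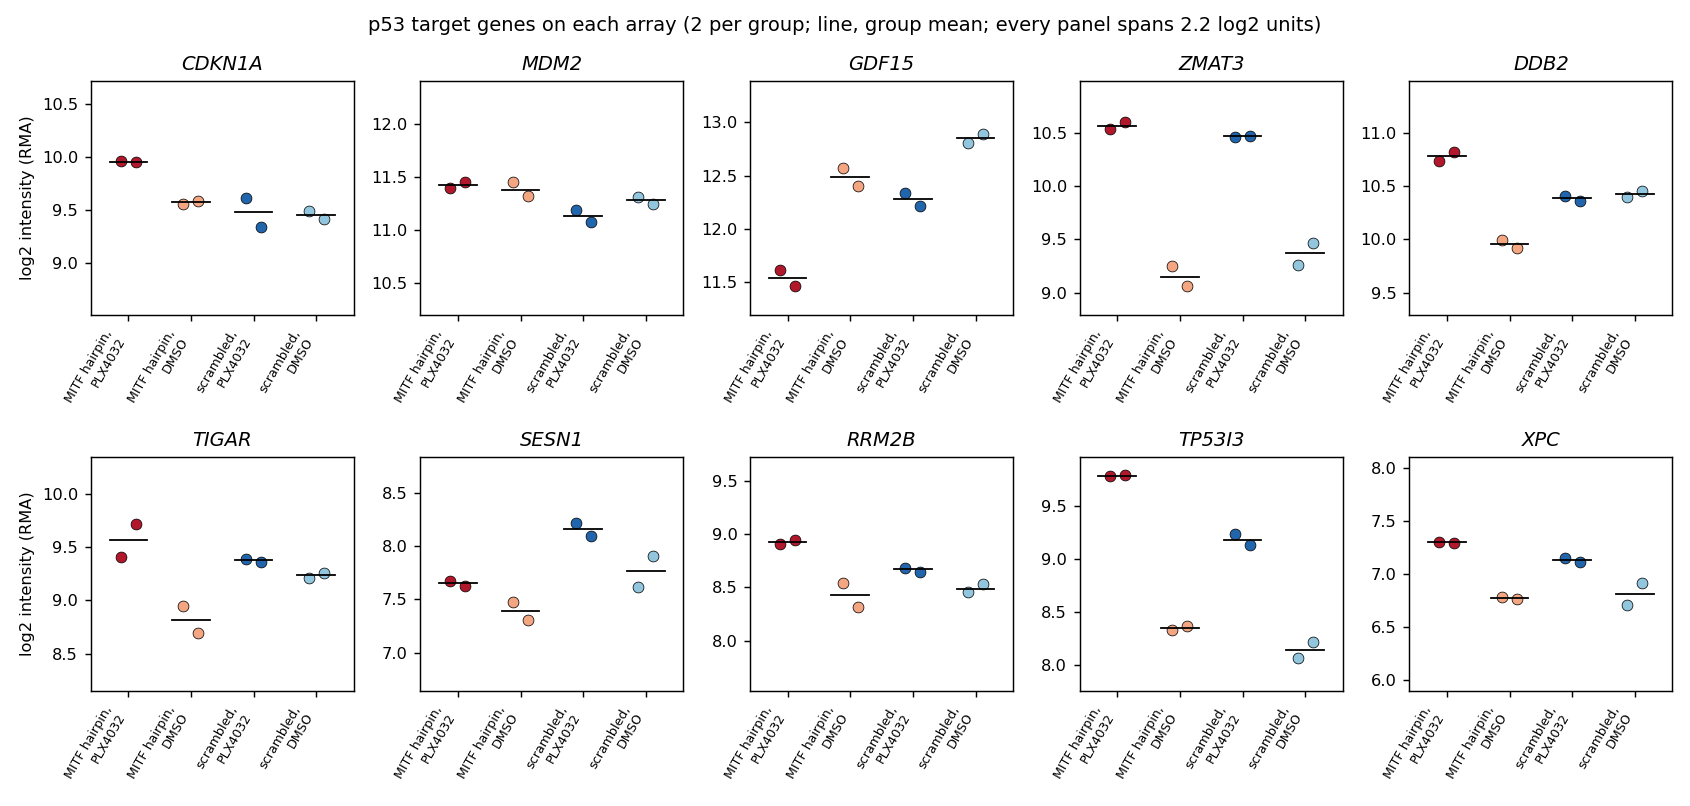
Level of each of the 10 p53 target genes on each of the 8 arrays (points; y axis, log2 intensity after RMA; lines, means of 2 arrays; x axis, the 4 groups). TP53I3 and ZMAT3 stand high on all 4 PLX4032 arrays, and GDF15 is lowest in shMITF PLX4032 cells. The mean of shMITF DMSO cells is the lowest for DDB2, TIGAR, ZMAT3, SESN1, RRM2B and XPC.

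CDKN1A encodes p21, the inhibitor of cyclin-dependent kinases through which p53 stops the cell cycle. It read 9.96 and 9.95 in shMITF PLX4032 cells, 9.56 and 9.58 in shMITF DMSO cells, 9.61 and 9.34 in shSCR PLX4032 cells, and 9.49 and 9.41 in shSCR DMSO cells. The doubly perturbed arrays stood above all others, and the shSCR PLX4032 arrays overlapped those of both DMSO groups. CDKN1A rose by 0.50 ± 0.096 under both perturbations (adjusted p = 0.00127), by 0.48 ± 0.096 on knockdown under PLX4032 (0.00314) and by 0.38 ± 0.096 with PLX4032 in knockdown cells (0.0089). Neither perturbation alone passed: knockdown in DMSO gave 0.12 ± 0.096 (95% interval -0.09 to 0.33) and PLX4032 in shSCR cells gave 0.02 ± 0.096 (-0.19 to 0.24). The difference between the PLX4032 changes with and without MITF knockdown, 0.36 ± 0.14, did not pass either (adjusted p = 0.125). Without array A of the shMITF DMSO group the PLX4032 change in knockdown cells was 0.37 and lost its call (adjusted p = 0.0579).

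MDM2, the ubiquitin ligase that limits p53, passed the test in 1 of the 5 comparisons. It read 11.40 and 11.45 in shMITF PLX4032 cells, 11.45 and 11.32 in shMITF DMSO cells, 11.19 and 11.08 in shSCR PLX4032 cells, and 11.31 and 11.25 in shSCR DMSO cells. The means spanned 0.29, with shSCR PLX4032 lowest. Knockdown under PLX4032 raised it by 0.29 ± 0.086 (adjusted p = 0.0274), a call lost without either array of shMITF PLX4032 or array B of shSCR PLX4032 (0.23 to 0.31, adjusted p 0.0669 to 0.152). The changes under PLX4032 were 0.04 ± 0.086 in knockdown cells (-0.15 to 0.23) and -0.14 ± 0.086 in shSCR cells (-0.33 to 0.05). Under both perturbations the change was 0.14 ± 0.086 (-0.04 to 0.33, adjusted p = 0.186).

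MDM4 and PPM1D were called in other comparisons than MDM2, whereas CDKN2A was called on knockdown under PLX4032, as MDM2 was, and in others. MDM4, the partner of MDM2 that blocks p53's activity, fell by 0.68 ± 0.083 under both perturbations (adjusted p = 4.79e-05), by 0.55 ± 0.083 with PLX4032 in knockdown cells (0.000343) and by 0.47 ± 0.083 with PLX4032 in shSCR cells (0.00107). Knockdown gave MDM4 changes of -0.20 ± 0.083 under PLX4032 (adjusted p = 0.0921) and -0.13 ± 0.083 in DMSO (0.255), and neither passed. PPM1D, a p53-induced phosphatase that switches off the damage response, rose by 0.62 ± 0.091 with PLX4032 in knockdown cells (0.000288) and by 0.28 ± 0.091 with PLX4032 in shSCR cells (0.0356). Knockdown gave PPM1D changes of 0.19 ± 0.091 under PLX4032 and -0.15 ± 0.091 in DMSO, and neither passed. Its PLX4032 call in shSCR cells ended without any 1 of the 4 arrays compared (0.24 to 0.32). CDKN2A, the locus of p16 and of the MDM2 inhibitor ARF, which these probes were not shown to separate, fell by 1.19 ± 0.086 with PLX4032 in shSCR cells and by 0.73 ± 0.086 in knockdown cells. On knockdown CDKN2A rose by 0.61 ± 0.086 under PLX4032 and read 0.15 ± 0.086 in DMSO, which did not pass. Of 15 measured regulators of p53, 2 rose and 9 fell under both perturbations, the checkpoint kinase genes CHEK1 (-1.92 ± 0.086) and CHEK2 (-1.43 ± 0.13) furthest, followed by the p53 kinase gene HIPK2. The median of the 15 was -0.34, beside 0.08 over all genes, of which 27.1% rose and 21.5% fell.

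GDF15, a secreted stress cytokine of the TGF-beta family, fell in all 5 comparisons. It read 11.61 and 11.46 in shMITF PLX4032 cells, 12.57 and 12.40 in shMITF DMSO cells, 12.34 and 12.21 in shSCR PLX4032 cells, and 12.81 and 12.89 in shSCR DMSO cells. All 4 groups stood apart, with shSCR DMSO highest and shMITF PLX4032 lowest. Its log2 changes were -1.31 ± 0.095 under both perturbations (adjusted p = 7.44e-07), -0.95 ± 0.095 with PLX4032 in knockdown cells (1.55e-05), -0.74 ± 0.095 on knockdown under PLX4032 (0.000138), -0.57 ± 0.095 with PLX4032 in shSCR cells (0.000775) and -0.36 ± 0.095 on knockdown in DMSO (0.0136). Without array B of either shMITF DMSO or shSCR DMSO the last was -0.28 or -0.33 and did not pass (adjusted p 0.13 and 0.0748). The interaction, -0.38 ± 0.13, did not pass (adjusted p = 0.101). The probe sets of GDF15 and MDM2 are bright (mean levels 12.29 and 11.30), where array signal is compressed. What this does to the changes of these 2 genes was not tested.

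ZMAT3, an RNA-binding protein that regulates splicing and RNA stability downstream of p53, rose with PLX4032 in both hairpin backgrounds. It read 10.54 and 10.60 in shMITF PLX4032 cells, 9.25 and 9.06 in shMITF DMSO cells, 10.46 and 10.47 in shSCR PLX4032 cells, and 9.26 and 9.47 in shSCR DMSO cells. All PLX4032 arrays lay above all DMSO arrays. The rise was 1.42 ± 0.099 in knockdown cells (2.67-fold, adjusted p = 9.69e-07) and 1.10 ± 0.099 in shSCR cells (2.15-fold, 8.71e-06). Knockdown gave 0.10 ± 0.099 under PLX4032 (-0.11 to 0.32) and -0.21 ± 0.099 in DMSO (-0.43 to 0.01, adjusted p = 0.128), and neither passed. ZMAT3 ranked 232 of 18404 genes by rise in knockdown cells and 275 in shSCR cells. Its relatives ZMAT1, ZMAT2 and ZMAT4 changed by 0.37 at most with PLX4032 in knockdown cells, ZMAT2 being the called one. That call was lost without array B of shMITF PLX4032 (0.24) or of shMITF DMSO (0.33).

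The DNA repair members differed among themselves. DDB2, the damage sensor that finds ultraviolet lesions for nucleotide excision repair and carries the decamer pair shown above, read 10.74 and 10.82 in shMITF PLX4032 cells, 9.99 and 9.92 in shMITF DMSO cells, 10.41 and 10.36 in shSCR PLX4032 cells, and 10.40 and 10.46 in shSCR DMSO cells. The shSCR groups overlapped, and the shMITF groups lay on opposite sides of them. Knockdown raised DDB2 by 0.39 ± 0.081 under PLX4032 (adjusted p = 0.00359) whereas in DMSO its change was -0.47 ± 0.081 (0.00115). PLX4032 raised it by 0.82 ± 0.081 in knockdown cells (1.77-fold, adjusted p = 1.3e-05), against -0.04 ± 0.081 in shSCR cells (-0.22 to 0.14, adjusted p = 0.743). The difference between these PLX4032 changes was 0.86 ± 0.11 (adjusted p = 0.000597), and it and the calls behind it held in every alternative fit. Only DDB2 and TIGAR of the 10 members passed in the interaction, where 11.8% of all genes were called (6.97% above 0 and 4.85% below). At an unadjusted p under 0.05 in limma, 4 more members, CDKN1A, ZMAT3, RRM2B and TP53I3, were above 0 and GDF15 was below. That threshold is looser than the one behind the 11.8%, and the share of all genes passing it was not taken.

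XPC, the partner sensor of DDB2 that recruits the repair machinery, read 7.30 and 7.29 in shMITF PLX4032 cells, 6.78 and 6.76 in shMITF DMSO cells, 7.15 and 7.11 in shSCR PLX4032 cells, and 6.71 and 6.91 in shSCR DMSO cells. The PLX4032 arrays lay above the DMSO arrays. XPC rose by 0.52 ± 0.088 with PLX4032 in knockdown cells (adjusted p = 0.000708) and by 0.32 ± 0.088 in shSCR cells (0.0152). The second call ended without shSCR DMSO array A or either shSCR PLX4032 array (0.22 to 0.34, adjusted p 0.0535 to 0.113). Knockdown gave 0.16 ± 0.088 under PLX4032 and -0.04 ± 0.088 in DMSO, and neither passed. Of 12 other nucleotide excision repair genes, 6 fell and 6 did not pass under both perturbations (21.5% of all genes fell, 48.6% were called). The median of the 12 was -0.23, beside 0.08 over all genes. The nuclease gene ERCC1 (-0.61 ± 0.097) and the helicase gene ERCC2 (-0.60) fell furthest, and DDB1, which binds DDB2 protein, fell by 0.30, a call lost without shSCR DMSO array B (-0.26). ERCC1 rose by 0.97 ± 0.097 on knockdown in DMSO.

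RRM2B encodes the p53-induced small subunit of ribonucleotide reductase, which makes deoxynucleotides for repair outside S phase. It read 8.91 and 8.95 in shMITF PLX4032 cells, 8.54 and 8.32 in shMITF DMSO cells, 8.68 and 8.65 in shSCR PLX4032 cells, and 8.46 and 8.53 in shSCR DMSO cells. The doubly perturbed arrays were highest and the 2 DMSO groups overlapped. RRM2B rose by 0.43 ± 0.090 under both perturbations (adjusted p = 0.00209) and by 0.50 ± 0.090 with PLX4032 in knockdown cells (0.00112). In shSCR cells PLX4032 gave 0.17 ± 0.090 (-0.03 to 0.37), which did not pass. Knockdown under PLX4032 gave 0.26 ± 0.090 (0.0487), a call that ended without any 1 of the 4 arrays compared or of the 2 shSCR DMSO arrays (0.25 to 0.28). RRM2, the S-phase counterpart, went the other way: it fell by 2.87 ± 0.15 under both perturbations (adjusted p = 5.73e-08) and by 1.24 ± 0.15 with PLX4032 in shSCR cells. Of 8 measured genes of deoxynucleotide supply, 7 fell and 1 rose under both perturbations, the riser being the deoxynucleotide hydrolase gene SAMHD1 (1.62 ± 0.083). Of all genes, 21.5% fell and 27.1% rose.

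Among the metabolic and redox members, TP53I3 (PIG3, a quinone oxidoreductase) had the largest change. It read 9.78 and 9.79 in shMITF PLX4032 cells, 8.33 and 8.37 in shMITF DMSO cells, 9.24 and 9.13 in shSCR PLX4032 cells, and 8.07 and 8.22 in shSCR DMSO cells. All 4 groups stood apart. TP53I3 rose by 1.44 ± 0.086 with PLX4032 in knockdown cells (2.7-fold, adjusted p = 2.98e-07), by 1.04 ± 0.086 in shSCR cells (2.05-fold, 4.79e-06) and by 0.60 ± 0.086 on knockdown under PLX4032 (0.000313). Knockdown in DMSO gave 0.21 ± 0.086 (0.02 to 0.40), which did not pass (adjusted p = 0.0905) but did after repeated quantile normalization and with limma's trend option (0.00888 and 0.0478). The interaction was 0.40 ± 0.12 (adjusted p = 0.0611). CRYZ, another quinone oxidoreductase of the same family, fell by 1.19 ± 0.10 under both perturbations.

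TIGAR, a phosphatase that p53 uses to slow glycolysis and spare NADPH, read 9.41 and 9.72 in shMITF PLX4032 cells, 8.95 and 8.69 in shMITF DMSO cells, 9.39 and 9.36 in shSCR PLX4032 cells, and 9.21 and 9.26 in shSCR DMSO cells. The SD of its shMITF PLX4032 arrays, 0.221, was the largest of any member in any group, and shMITF DMSO was lowest. It rose by 0.75 ± 0.12 with PLX4032 in knockdown cells (1.68-fold, adjusted p = 0.000395), against 0.14 ± 0.12 in shSCR cells (-0.12 to 0.40, not called). The difference was 0.61 ± 0.16 (adjusted p = 0.0349). On knockdown in DMSO it fell by 0.42 ± 0.12 (0.0179), and it rose by 0.33 ± 0.12 under both perturbations (0.0349). The interaction call was lost without 1 array in 6 of 8 such fits (0.45 to 0.63, adjusted p 0.0519 to 0.153), the exceptions being array A of each shMITF group. The fall in DMSO was lost without array B of shMITF DMSO (-0.29) or of shSCR DMSO (-0.39), and the rise under both perturbations was 0.18 without array B of shMITF PLX4032 (adjusted p = 0.26) and 0.31 to 0.35 in the other 5 fits that lost it, namely those without an array of either shSCR group and that of the compared groups alone.

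SESN1, a stress-induced inhibitor of mTORC1 signalling, had another pattern. It read 7.67 and 7.63 in shMITF PLX4032 cells, 7.48 and 7.31 in shMITF DMSO cells, 8.22 and 8.10 in shSCR PLX4032 cells, and 7.62 and 7.91 in shSCR DMSO cells. The shSCR PLX4032 arrays were highest. On knockdown SESN1 changed by -0.51 ± 0.11 under PLX4032 (adjusted p = 0.00444) and by -0.37 ± 0.11 in DMSO (0.0227), while PLX4032 raised it by 0.39 ± 0.11 in shSCR cells (0.0161). PLX4032 in knockdown cells gave 0.26 ± 0.11 (0.0995). Of these calls the first was lost without shSCR PLX4032 array A (-0.45, 0.0502), the second without array B of shMITF DMSO or of shSCR DMSO (-0.29 and -0.23) and after repeated quantile normalization (-0.26, 0.0563), and the third without array A of shSCR PLX4032 or of shSCR DMSO (0.33 and 0.25). The related genes differed: SESN3 rose by 2.53 ± 0.11 with PLX4032 in knockdown cells and by 1.99 ± 0.11 in shSCR cells, and SESN2 rose by 0.41 ± 0.12 and 0.63 ± 0.12, the first of which was lost without shMITF PLX4032 array B or either shMITF DMSO array (0.37 to 0.41).

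**Figure D2:**
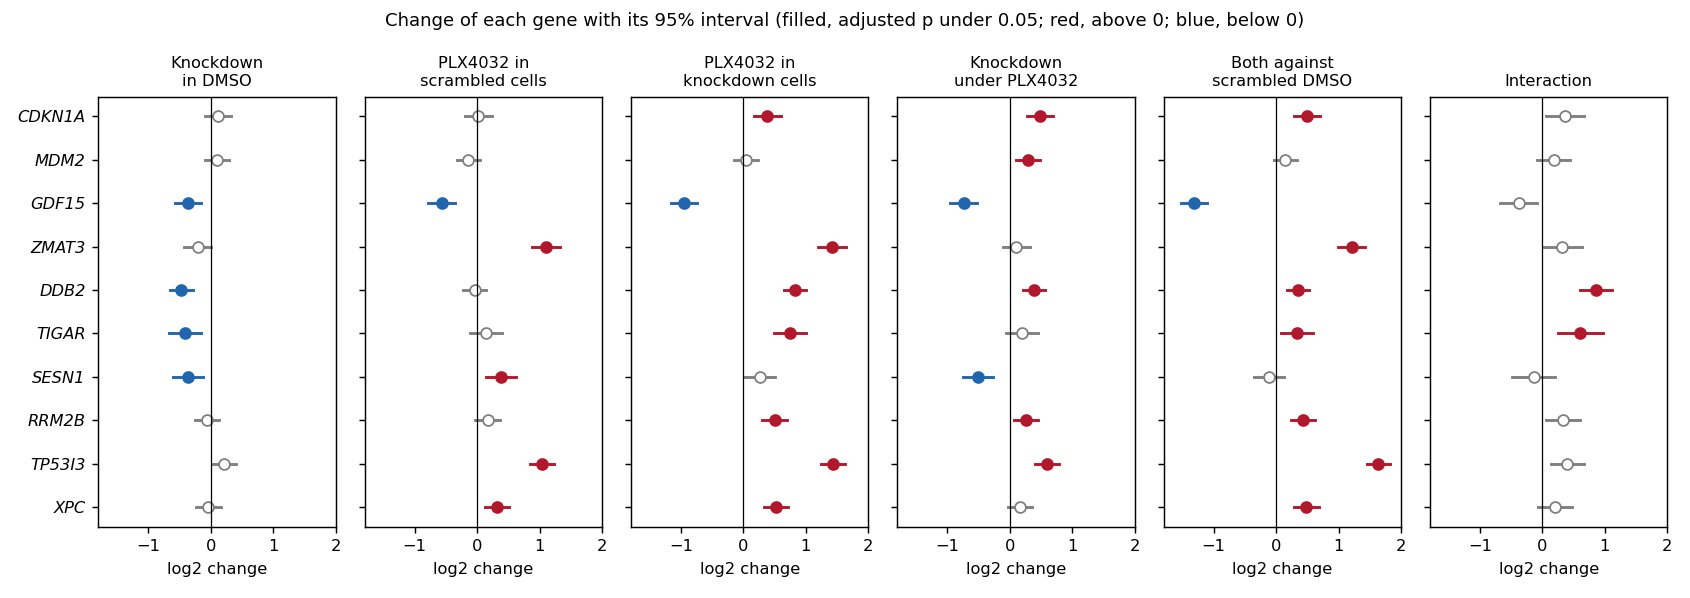
log2 change of each of the 10 p53 target genes (rows) in 5 comparisons and in the interaction (panels), with 95% intervals from limma's fit; filled points have an adjusted p under 0.05. GDF15 is below 0 in all 6 panels. With PLX4032, 7 members rose in knockdown cells (18.6% of all genes) and 4 in shSCR cells (17.3% of all genes). The interaction passed for DDB2 and TIGAR alone.

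Set side by side, the comparisons called different numbers of members. PLX4032 in knockdown cells raised 7 and lowered 1 (18.6% of all genes rose, and 33.7% were called in either direction), and 5 of the 8 changed by at least 1.5-fold (14.4% of all genes). PLX4032 in shSCR cells raised 4 (ZMAT3, TP53I3, SESN1 and XPC) and lowered GDF15, against 34.1% of all genes, and 2 of these 5 reached 1.5-fold (12.7%). SESN1 and XPC lost their calls without array A of shSCR PLX4032 or of shSCR DMSO, in fits that also called fewer of all genes. Knockdown under PLX4032 raised 5 and lowered 2 (28.5% of all genes were called), and 2, GDF15 and TP53I3, reached 1.5-fold (10.6%). Knockdown in DMSO raised 0 and lowered 4, GDF15, DDB2, TIGAR and SESN1, where 18.8% of all genes fell and 33.2% were called, and none of them reached 1.5-fold. At an unadjusted p under 0.05 in limma, TP53I3 alone was above 0 in that comparison. The share of all genes at that looser threshold was not taken. DDB2 kept its call without array B of shMITF DMSO or of shSCR DMSO, whereas GDF15, TIGAR and SESN1 lost theirs. Those fits also called fewer of all genes. The arrays of the groups compared did not overlap for 9 members under both perturbations (73.6% of all genes), 9 with PLX4032 in knockdown cells (64.5%), 8 with PLX4032 in shSCR cells (65.3%), 10 on knockdown under PLX4032 (62.6%) and 8 on knockdown in DMSO (68.2%).

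The 2 PLX4032 comparisons share no arrays. The PLX4032 change was higher in knockdown than in shSCR cells for 8 of 10 members, the exceptions being GDF15 and SESN1, and for 50.2% of all genes. Of 29 other p53 targets, 19 also had the higher change in knockdown cells. The PLX4032 change had the same sign in both for 8 of 10 members, 21 of the 29 other targets and 71.5% of all genes. The 2 knockdown comparisons also share no arrays. The knockdown change had the same sign in both for 5 of 10 members (CDKN1A, MDM2, GDF15, SESN1 and TP53I3). It did so for 19 of the 29 other targets and 70.7% of all genes. The median interaction of the members was 0.32, beside 0.00 over all genes. It was also 0.32 over 8 genes of deoxynucleotide supply and 0.31 over 16 cell cycle genes that p53 lowers, described below. The 29 other targets had a median of 0.19, the 15 regulators of p53 0.04 and 12 other nucleotide excision repair genes -0.04. For DDB2 the changes of the single perturbations summed to -0.51 and the joint change was 0.35. For TIGAR they summed to -0.28 against 0.33, and for TP53I3 to 1.24 against 1.64.

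**Figure D3:**
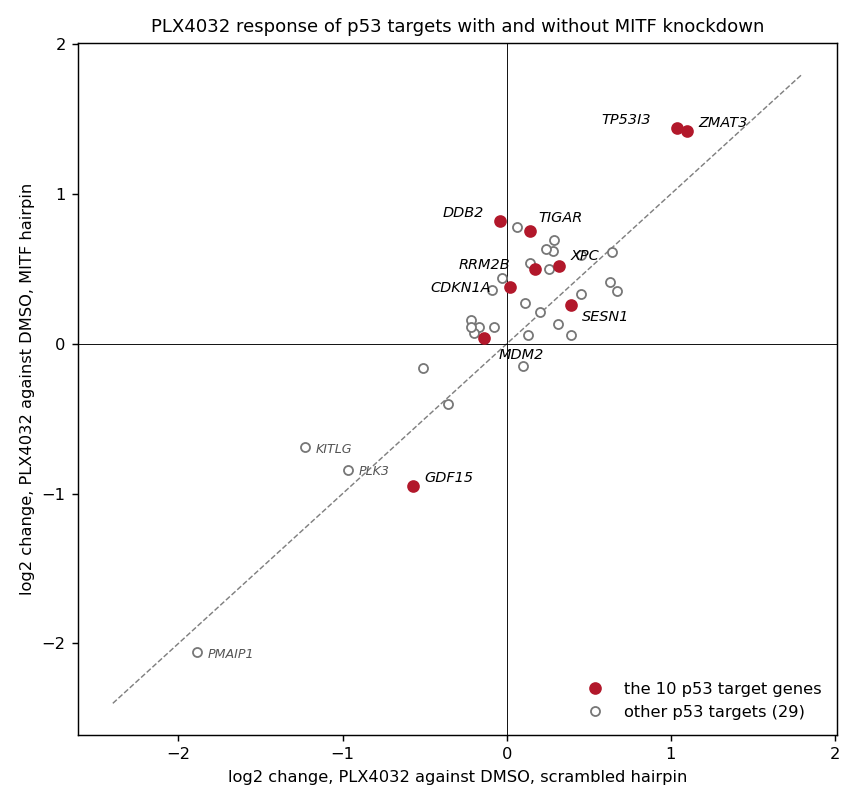
log2 change under PLX4032 in shMITF cells (y axis) against that in shSCR cells (x axis) for the 10 p53 target genes (red) and 29 other p53 targets (open); the dashed line marks equal change. DDB2, at 0.82 and -0.04, and TIGAR, at 0.75 and 0.14, are the members whose difference passed the test.

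Other known p53 targets, a list of 32 genes of which 29 were measured, split in direction. With PLX4032 in knockdown cells 13 rose and 4 fell (median 0.21, all genes 0.04), against 9 and 5 in shSCR cells (median 0.11, all genes 0.05). Called in either direction were thus 17 and 14 of the 29, beside 33.7% and 34.1% of all genes. Under both perturbations 14 rose and 6 fell, beside 48.6% of all genes called. PMAIP1 (NOXA, which promotes cell death) fell by 2.06 ± 0.14 in knockdown cells and by 1.89 ± 0.14 in shSCR cells, and the stress kinase gene PLK3 by 0.84 ± 0.089 and 0.97 ± 0.089. DRAM1, a lysosomal protein that p53 induces in autophagy, rose by 0.78 ± 0.13 in knockdown cells and read 0.06 ± 0.13 in shSCR cells, and the death receptor gene FAS rose by 0.67 ± 0.11 in shSCR cells. The KIT ligand gene KITLG fell by 0.69 ± 0.15 in knockdown cells and by 1.23 ± 0.15 in shSCR cells.

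On knockdown, 9 of the 29 rose and 5 fell in DMSO, and 7 rose and 1 fell under PLX4032. The 8 called under PLX4032 are a share near the 28.5% of all genes, and the 14 called in DMSO stand beside 33.2%. In DMSO the changes furthest from 0 were those of TRIM22, which interferon also induces (1.26 ± 0.11), KITLG (1.10 ± 0.15), the AKT inhibitor gene PHLDA3 (0.64 ± 0.086) and the translesion polymerase gene POLH (-0.51 ± 0.088). Under PLX4032 they were those of KITLG (1.64 ± 0.15), TRIM22 (0.93 ± 0.11), PHLDA3 (0.88 ± 0.086) and the kinase gene PLK2 (0.78 ± 0.089). In the interaction 4 of the 29 passed, a share near the 11.8% of all genes, and these were above 0: DRAM1 (0.72 ± 0.18), RPS27L (0.47 ± 0.13), the death effector gene BAX (0.45 ± 0.12) and CCNG1 (0.40 ± 0.11). Each of these 4 lost the call without some single array, with values of 0.50 to 0.75, 0.39 to 0.54, 0.38 to 0.49 and 0.36 to 0.45 in those fits. The arrays concerned came from every group.

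**Figure D4:**
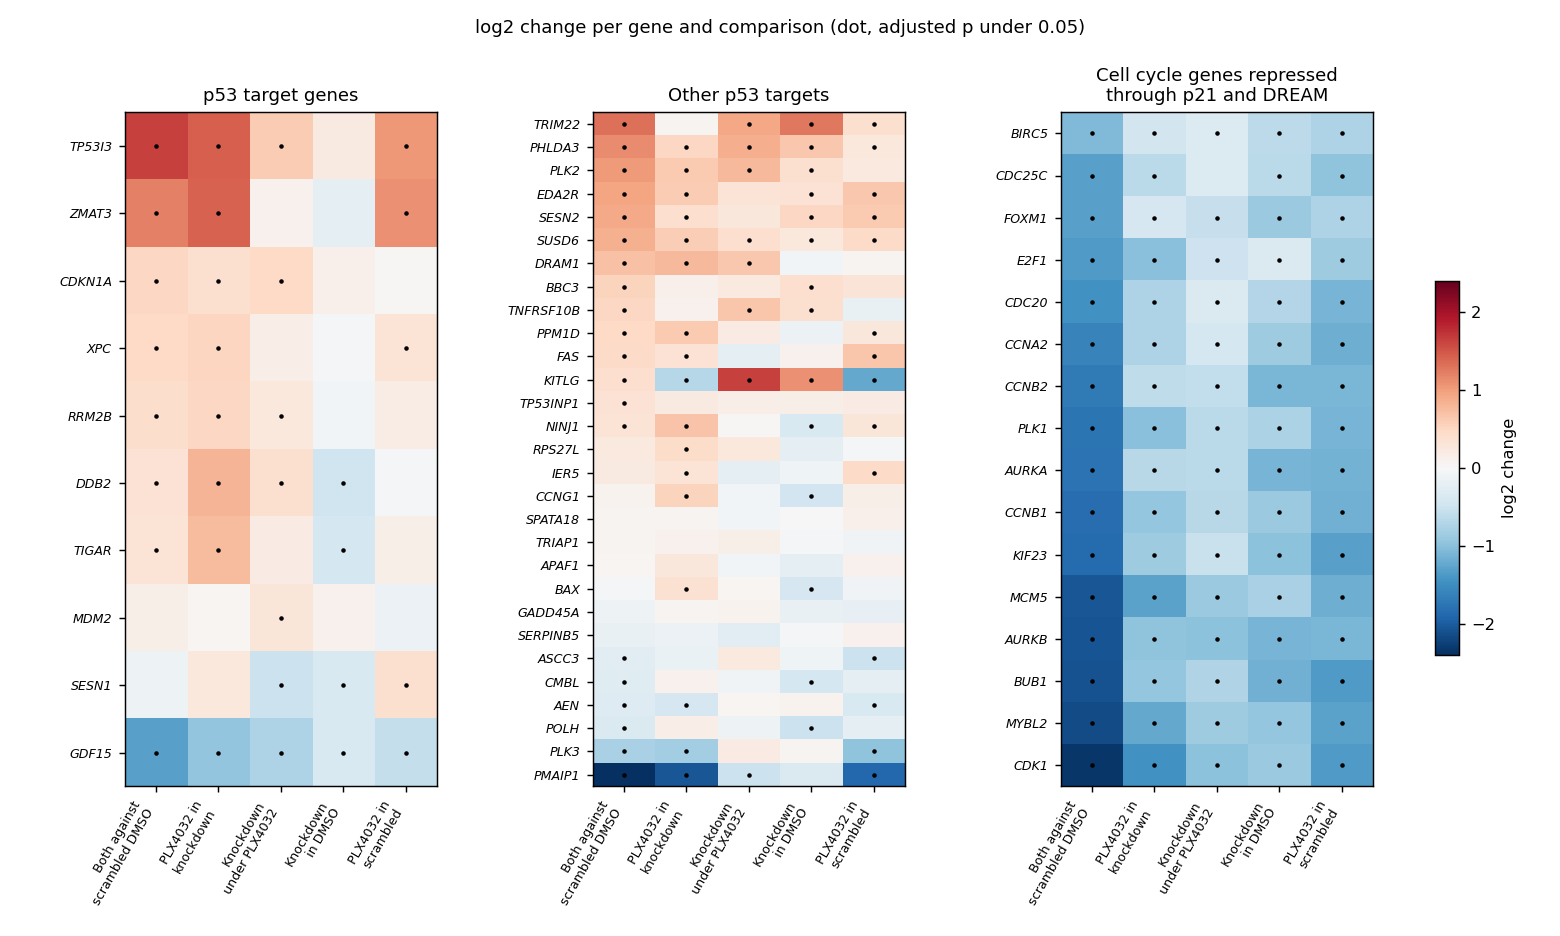
log2 change (colour) of the 10 p53 target genes, 29 other p53 targets and 16 cell cycle genes repressed through p21 and DREAM (rows) in 5 comparisons (columns); dots mark an adjusted p under 0.05. The cell cycle genes fell in all 5 comparisons, except CDC25C on knockdown under PLX4032, whereas the p53 targets were mixed.

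p53 also lowers cell cycle genes, through p21 and the DREAM repressor complex. All 16 measured genes of that list fell under both perturbations (median -1.77), with PLX4032 in knockdown cells (-0.89), with PLX4032 in shSCR cells (-1.13) and on knockdown in DMSO (-0.89), and 15 fell on knockdown under PLX4032 (-0.62). Of all genes, 21.5%, 15.1%, 16.8%, 18.8% and 15% fell in these comparisons, in that order. Under both perturbations the mitotic kinase gene CDK1 (-2.34 ± 0.18), the MuvB partner gene MYBL2 (-2.15 ± 0.090), BUB1 (-2.09 ± 0.12) and AURKB (-2.08 ± 0.089) fell furthest. In shSCR cells these falls stood beside a CDKN1A change of 0.02 ± 0.096, and on knockdown in DMSO beside one of 0.12 ± 0.096. Whether the falls depend on p21 was not tested. Another inhibitor gene, CDKN1B (p27), rose by 0.77 ± 0.077 with PLX4032 in shSCR cells and fell by 0.49 ± 0.077 on knockdown under PLX4032.

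By the distance between group means, RRM2B and XPC were the most alike pair of members (0.161) and DDB2 and TIGAR the next (0.189), whereas GDF15 and TP53I3 were the least alike (3.41). The distance is Euclidean, over 3 differences from shSCR DMSO (4 group means, 8 arrays). Over all genes, the patterns nearest to CDKN1A were those of LY6G6E (0.0231), TAFA1 (0.0285) and SNORA57 (0.0321). Those nearest to MDM2 were those of TFR2 (0.024), FADS6 (0.0253) and EEF1AKMT1 (0.0319). All but SNORA57 (mean level 8.53) were dim: LY6G6E averaged 5.70, TAFA1 3.88, TFR2 4.86, FADS6 5.61 and EEF1AKMT1 4.05. The median gene level was 6.80, and CDKN1A and MDM2 averaged 9.61 and 11.30.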

How the data were processed

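RNA from 8 COLO829 samples was hybridised to Affymetrix arrays. The authors deposited log2 intensities per probe set, made with RMA per the submitters' processing notes (no version); genome build and annotation: not given in the sources used here. RMA equalises the arrays' distributions, and array signal is compressed at the bright and dim ends. Values ran from 2.098 to 13.53, and no detection calls were used. Of 32321 probe sets, 19158 carried 1 gene symbol in the platform annotation; per gene the one with the highest mean was kept, which gave 18404 genes. R 4.3.3 and limma 3.58.1 (lmFit, eBayes) were fitted with a mean per group over 8 arrays (4 residual and 6.73 prior degrees of freedom), with two-sided tests, and the fit was tested on simulated data. The arrays' number limits precision: the median SE was 0.0939. Some genes of the lists are not reported here. The members, lists and naming rule (all members; up to 4 largest called changes per list; MDM4, PPM1D and CDKN2A) were chosen with earlier results of these data known. Alternatives were other normalization, probe set summary, filter on dim genes, variance prior, arrays in the fit, a replicate block and leaving out each array.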

Additional observations from a re-analysis of the deposited data

Results flagged for a closer look

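The response to PLX4032 differed with the hairpin, by the interaction test of limma's fit, for 2 of the 10 members. Of all genes, 11.8% were called in that test. DDB2 changed by 0.82 in knockdown cells, against -0.04 in shSCR cells, a difference of 0.86 ± 0.11 (adjusted p = 0.000597, and called in each alternative). TIGAR changed by 0.75 in knockdown cells, against 0.14 in shSCR cells, a difference of 0.61 ± 0.16 (adjusted p = 0.0349), whose call was lost in 6 of the 8 fits that leave out 1 array. For both genes the shMITF DMSO group, which enters this difference, was the lowest of the 4. Its mean was also the lowest for ZMAT3, SESN1, RRM2B and XPC, whose interaction did not pass.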

How the results depend on the processing

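Of 60 changes (10 members in 6 contrasts), 34 were called, and 23 of these kept direction and call under every alternative run. The other 11 lost the call under at least 1, and 6 of the 26 uncalled changes passed under at least 1; none of the called changes turned direction. When each array was left out in turn, the number of members called lay between 1 and 5 for knockdown in DMSO, 3 and 5 for PLX4032 in shSCR cells, and 1 and 2 for the interaction; such a fit has fewer arrays and so less power. With limma's trend option 5 members passed in the interaction, CDKN1A, GDF15 and TP53I3 besides DDB2 and TIGAR. That option also called more of all 18404 genes in the interaction, 2790 against 2176 in the main fit. The labels do not say what a shared letter means; deviations of same-letter arrays from their group means correlated at -0.094 to 0.329, above 0.1 in 1 of 6 pairs of groups, so the letters were not taken to pair the arrays. With the letter as a replicate block the count was 6 for knockdown under PLX4032 (RRM2B lost, adjusted p = 0.0578), and no other member's call changed. Other scalings moved the median of all genes by less than 0.1 on the log2 scale. The number of arrays and the unknown signal over background limit what can be seen for small changes.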

Other observations

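Genes of the ATF4 stress response, which also induces GDF15 and SESN2, did not move one way. Of 12 measured, 4 rose and 4 fell under both perturbations, beside the fall of GDF15 by 1.31. Of all genes, 27.1% rose and 21.5% fell. ATF3 rose by 1.83 ± 0.14, while the cystine transporter gene SLC7A11 fell by 1.76 ± 0.15, the serine synthesis gene PHGDH by 1.52 ± 0.081 and the pseudokinase gene TRIB3 by 1.21. ATF4 itself read 0.00 ± 0.084.

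Of 5 measured inhibitors of cyclin-dependent kinases other than CDKN1A, 2 rose and 2 fell under both perturbations. Of all genes, 27.1% rose and 21.5% fell. CDKN2B (p15) rose by 1.22 ± 0.082 on knockdown in DMSO and by 1.05 ± 0.082 on knockdown under PLX4032, and it fell by 1.68 ± 0.082 with PLX4032 in knockdown cells. CDKN1A rose in the last 2 of these comparisons and did not pass on knockdown in DMSO.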
